A study of Mus musculus with 16 samples.

Results

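The response of liver tumors to paclitaxel was followed in 10 RNA sequencing libraries out of the 16 in the series, 5 labelled pre_Liver and 5 labelled post_Liver. Both groups were wild-type (WT) female BALB/c mice, 6 weeks old, with tumors of 4T1, a single line of mouse mammary carcinoma that stands in for triple-negative breast cancer, grown from 200000 cells placed directly beneath the capsule of the left liver lobe rather than by spread from a primary tumor. The post_Liver label names intraperitoneal paclitaxel, given per the protocol at 10 mg/kg on 5 occasions a week over 2 weeks with PBS for the controls, whereas the pre_Liver label names no treatment. The protocol states 15 days of tumor growth for all samples. Whether the pre_Liver tumors were PBS controls of equal age or were taken ahead of dosing is not given in the sources used here, so drug exposure and tumor age cannot be told apart. The design text sets tumors before chemotherapy against tumors after it to ask how well the drug works in liver metastases. The comparison of post_Liver with pre_Liver covered every gene with a mean of at least 1 FPKM (fragments mapped to a gene, scaled to transcript length and to the size of the library) over the 10 libraries, which was 13008 of 17882 gene names. The labels do not say that each library came from its own mouse, so each p-value describes only how these libraries spread, which may be technical, and the sequencing depth is unknown.

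Paclitaxel binds the tubulin of microtubules and arrests dividing cells in mitosis. The precursors of blood granulocytes in the bone marrow are among the dividing host cells it reaches, and the marrow replaces neutrophils in stages: promyelocytes make the primary granule proteins, myelocytes and metamyelocytes the secondary granule proteins, and mature cells the surface receptors. 4T1 tumors are known for a strong expansion of granulocytes in their host. In the liver, hepatocytes make albumin and most plasma proteins and clear paclitaxel through uptake carriers, cytochrome P450 enzymes and bile exporters, and much of their gene expression follows the daily clock, feeding and hormones.

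The libraries were mixtures of carcinoma, hepatocyte and other host RNA, and the share of hepatocyte RNA differed widely within both groups. Alb, the gene for serum albumin (chromosome 5, 90460897 to 90476602, GRCm38), stood at 12625, 4315, 15010.4, 28687 and 32308 FPKM in pre_Liver 1 to 5 and 5505, 476, 400.2, 11519 and 5655 FPKM in post_Liver 1 to 5. The groups overlapped, with post_Liver 2 and 3 far below all others and pre_Liver 4 and 5 the highest. The highest and lowest values differed 7.49-fold among untreated and 28.8-fold among treated libraries. The mean log2(FPKM + 1) of Alb differed by −2.69 after treatment, which did not pass an exact two-sided permutation test with 252 arrangements of the libraries (p = 0.0556, where the smallest possible is 0.00794). The summed level of the 24 hepatocyte genes spanned 20815 to 90348 FPKM in pre_Liver and 2188 to 51541 FPKM in post_Liver. Carcinoma genes were present in every library and ran opposite to Alb. Epcam, an adhesion molecule of epithelial cells, stood at 162, 221, 80.5, 11.3 and 18 FPKM in pre_Liver 1 to 5 and 197, 372, 378, 44.6 and 177 FPKM in post_Liver 1 to 5. Its lowest values were in pre_Liver 4 and 5 and its highest in post_Liver 2 and 3. In bulk RNA, fewer cells of a type and less RNA per cell cannot be told apart.

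Differences of single genes are therefore given in 2 forms, as the log2(FPKM + 1) of post_Liver minus that of pre_Liver, and as the same difference in a fit that also holds the log2 Alb level of each library, each with its standard error (SE, after the ± sign) over n = 5 libraries a group. Both were fitted over all genes with limma, and genes whose p after Benjamini-Hochberg adjustment was under 0.05 were called. In the second fit the Alb level itself had a slope called for 7396 of 13007 genes (56.9%), positive for 1896 (14.6%) and negative for 5500 (42.3%). The adjusted difference leaves out whatever part of a drug response moves together with Alb.

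**Figure D1:**
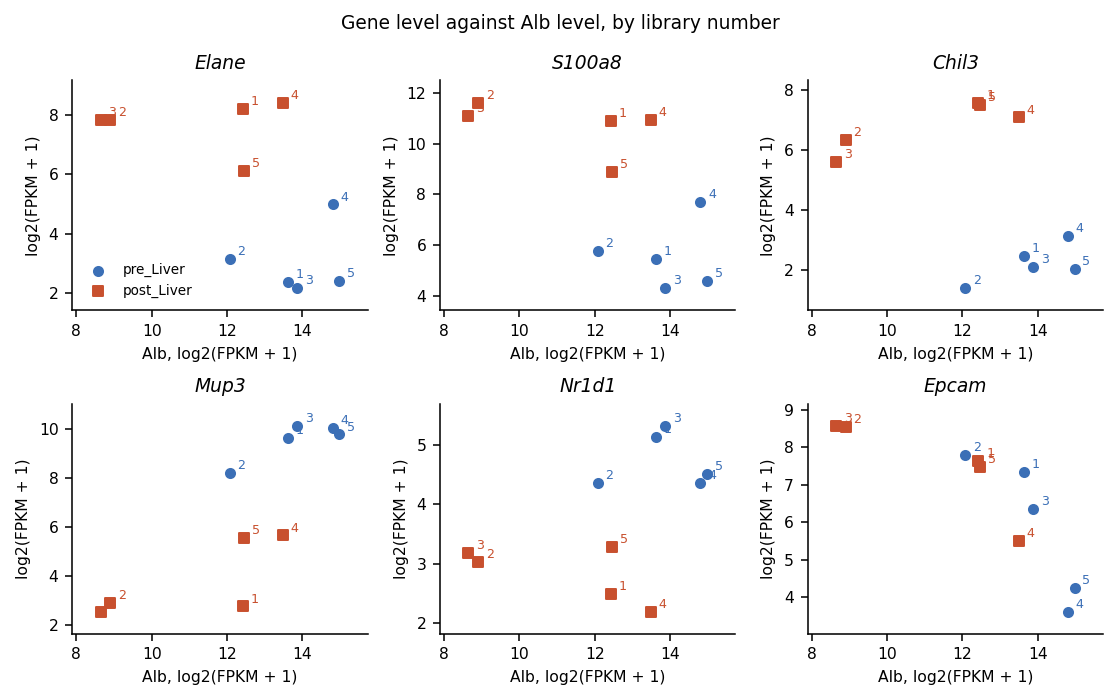
Level of 6 genes against the level of Alb in each library, both as log2(FPKM + 1), with circles for pre_Liver, squares for post_Liver and library numbers beside the points. Elane, S100a8 and Chil3 separate by group at any Alb level, Mup3 and Nr1d1 separate the other way, and Epcam falls as Alb rises in both groups.

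Without adjustment 474 of 13008 genes were called (3.64%), 291 higher (2.24%) and 183 lower (1.41%) after treatment, and with adjustment 320 of 13007 (2.46%), 226 higher (1.74%) and 94 lower (0.723%). The fits shared 148 genes, all in the same direction, 108 higher and 40 lower, which is 31.2% of the unadjusted and 46.2% of the adjusted calls. The median difference of all genes was 0.37 without and 0.01 with adjustment. In FPKM, the treated libraries lay wholly above the untreated ones for 671 genes (5.16%) and wholly below for 191 (1.47%). Genes of neutrophil granules led the rises in both fits, and genes of the major urinary protein cluster led the falls.

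The counts leaned on single libraries. Post_Liver 2 and 3 were close to each other (r = 0.993 over genes; genes are no replicates), and counting their mean as 1 library left 159 unadjusted and 15 adjusted calls. The adjusted count dropped to 17 without pre_Liver 3, to 45, 19, 15 and 1 without post_Liver 1, 2, 3 and 4 in turn, and to 122 without pre_Liver 1. In another table of the authors, pre_Liver 4 and 5 carry a constant per gene of opposite sign to that of pre_Liver 1 to 3 (in 99.2% of 8738 genes). The labels name no batch, and the standing of the post_Liver libraries in this respect is not known. The unadjusted fit called 19.3% of all genes higher and 7.86% lower without pre_Liver 2, and 7.22% higher and 6.59% lower without post_Liver 4, which is the background for the list counts given from these fits. The adjusted fit called 4.12% higher and 2.12% lower without pre_Liver 2. Without pre_Liver 4 and 5 the counts were 78 unadjusted (0.45% higher and 0.145% lower) and 524 adjusted (2.02% and 1.98%). Of the 60 genes named here with an unadjusted call, 38 kept it with any 1 library left out. The others, which lost it without at least 1 library, were Car3, Cela1, Cry1, Cxcr2, Cyp2c29, Cyp2c37, Dbp, Fcer1a, Gm21320, Gzmc, Hspa1b, Lcn2, Ly6g, Mcpt8, Mmp25, Mmp7, Mup10, Mup16, Mup19, Ppbp, Sesn1 and Timd4. Of the 63 with an adjusted call, Chil3 alone kept it with any 1 library left out, 9 kept it without pre_Liver 3, and 56 without pre_Liver 2.

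**Figure D2:**
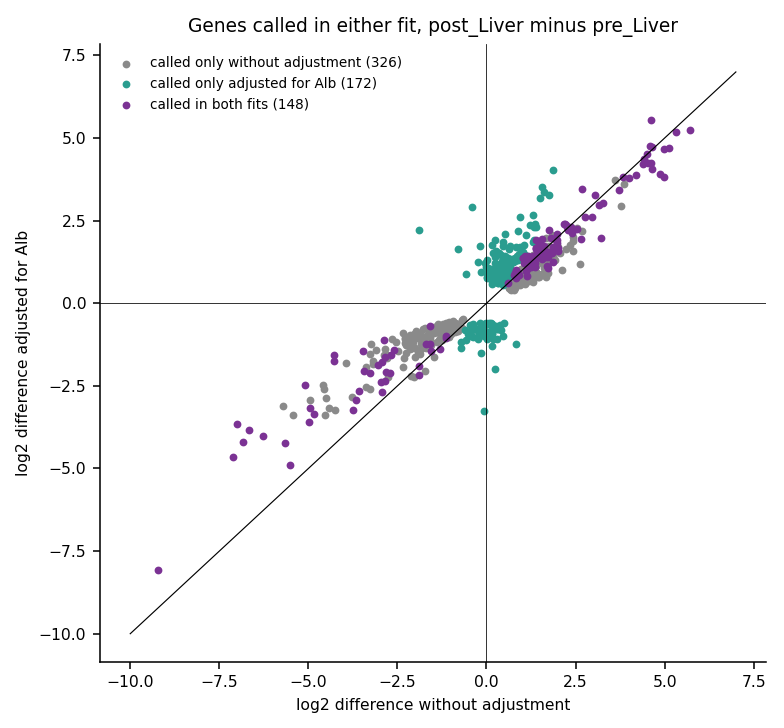
Log2 difference, post_Liver minus pre_Liver, without adjustment (horizontal axis) and adjusted for Alb (vertical axis) for each gene called in either fit, with the line of equal values. The 148 genes called in both fits reach the far ends of both axes, and no gene called in both changes sign.

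Genes of the primary granules, the first granules a neutrophil precursor makes, rose together. All 8 listed genes were called higher in both fits, with a median log2 difference of 4.46 without and 4.44 with adjustment, beside medians of 0.37 and 0.01 for all genes. The upstream sequences of 3 of them are shown first because these genes moved together from a low level: each run ends at the base before the start of the RefSeq transcript (GRCm38.p6), or before the GENCODE gene where that begins earlier, and reads 5′ to 3′ on the strand of the gene. Capitals mark matches on either strand to TTNNGNAA (the core bound by C/EBP factors), GAGGAA (PU.1) or TGTGGT (RUNX), factors known to act in granulocyte precursors.
Elane: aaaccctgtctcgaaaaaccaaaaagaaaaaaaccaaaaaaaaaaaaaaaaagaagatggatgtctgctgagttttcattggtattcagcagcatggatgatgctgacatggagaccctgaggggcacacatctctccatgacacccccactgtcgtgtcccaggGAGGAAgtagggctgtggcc
Ctsg: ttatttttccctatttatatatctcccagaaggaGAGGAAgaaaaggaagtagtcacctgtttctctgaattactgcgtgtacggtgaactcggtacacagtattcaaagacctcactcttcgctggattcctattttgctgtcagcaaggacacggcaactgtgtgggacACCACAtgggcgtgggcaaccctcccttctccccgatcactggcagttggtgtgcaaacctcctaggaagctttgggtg
Ms4a3: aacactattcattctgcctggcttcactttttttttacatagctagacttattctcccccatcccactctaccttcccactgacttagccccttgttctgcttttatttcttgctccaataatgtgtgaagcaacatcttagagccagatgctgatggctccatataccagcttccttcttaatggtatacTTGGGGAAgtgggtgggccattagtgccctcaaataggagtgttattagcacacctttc
The Elane run lies at chr10:79886062-79886246 on the plus strand (185 bases), the Ctsg run at chr14:56102575-56102824 and the Ms4a3 run at chr19:11640852-11641101, both on the minus strand (250 bases each). Of the 8 genes, 7 had an entry in the RefSeq promoter table. Over the full 250 bases, TTNNGNAA was found in 3 of the 7 (Chil3, Fcnb and Ms4a3), GAGGAA in 4 (Ctsg, Elane, Mpo and Prtn3) and TGTGGT in 1 (Ctsg). Among all 32851 promoter windows of that length, 36.8%, 23.3% and 14.0% held these motifs. The matches describe letters only.

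Elane, which encodes neutrophil elastase, stood at 4.24, 7.9, 3.52, 30.8 and 4.34 FPKM in pre_Liver 1 to 5 and 295, 225, 227, 340.2 and 69 FPKM in post_Liver 1 to 5. Every treated library lay above every untreated one, with pre_Liver 4 the highest of the untreated and post_Liver 5 the lowest of the treated. The difference was 4.66 ± 0.58 (SE; limma adjusted p = 0.00565) without adjustment and 4.73 ± 0.78 (SE; limma adjusted p = 0.031) adjusted for Alb. Mpo, the myeloperoxidase that makes hypochlorous acid, likewise had its highest untreated value in pre_Liver 4 and its lowest treated value in post_Liver 5, at 5.47, 8.55, 5.09, 33.5 and 3.87 FPKM in pre_Liver 1 to 5 and 325, 234, 225, 332 and 63.5 FPKM in post_Liver 1 to 5. Its difference was 4.50 ± 0.59 (SE; limma adjusted p = 0.00574) without adjustment and 4.53 ± 0.79 (SE; limma adjusted p = 0.0331) adjusted for Alb. Prtn3 (proteinase 3) and Ctsg (cathepsin G), the serine proteases packed with elastase, differed by 3.83 ± 0.45 and 4.60 ± 0.60 without adjustment (limma adjusted p = 0.00467 and 0.00574) and by 3.81 ± 0.60 and 4.77 ± 0.80 with it. Elane and Prtn3 are neighbours in 1 protease cluster on chromosome 10, and their groups did not overlap.

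Ms4a3, a membrane protein of granulocyte and monocyte progenitors, stood at 1.03, 1.28, 1.07, 4.72 and 0.84 FPKM in pre_Liver 1 to 5 and 79.2, 62.5, 66.4, 81 and 14.8 FPKM in post_Liver 1 to 5. All untreated libraries but pre_Liver 4 were near 1 FPKM, and the groups did not overlap. Ms4a3 rose by 4.41 ± 0.48 without and 4.35 ± 0.64 with adjustment (limma adjusted p = 0.0036 and 0.0271). Cebpe, the transcription factor that carries precursors from the primary to the secondary granule stage, moved from 0.12 to 2.63 FPKM before and 5.71 to 24.3 FPKM after treatment, and Fcnb, the lectin ficolin B, from 0.51 to 4.07 FPKM before and 8.52 to 47.5 FPKM after treatment. Their differences were 3.06 ± 0.41 and 3.71 ± 0.46 unadjusted and 3.27 ± 0.53 and 3.44 ± 0.60 adjusted.

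Chil3, a chitinase-like protein of immature neutrophils and of some macrophages, gave the lowest adjusted p of the 8. It stood at 4.45, 1.6, 3.27, 7.66 and 3.03 FPKM in pre_Liver 1 to 5 and 191, 79.1, 47.1, 135 and 182 FPKM in post_Liver 1 to 5. Here post_Liver 3 was the lowest treated library and post_Liver 5 was among the highest, whereas post_Liver 5 was the lowest for the other 7 genes. The difference was 4.61 ± 0.43 (SE; limma adjusted p = 0.0021) without adjustment and 5.53 ± 0.34 (SE; limma adjusted p = 0.000291) adjusted for Alb. Without adjustment all 8 genes were called with any 1 library left out. With adjustment Chil3 alone was called without pre_Liver 3 or any of post_Liver 1 to 4, 6 were called without pre_Liver 1, and 1 with post_Liver 2 and 3 averaged. All 8 were called in both fits without pre_Liver 4 and 5, with medians of 4.75 and 4.62.

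**Figure D3:**
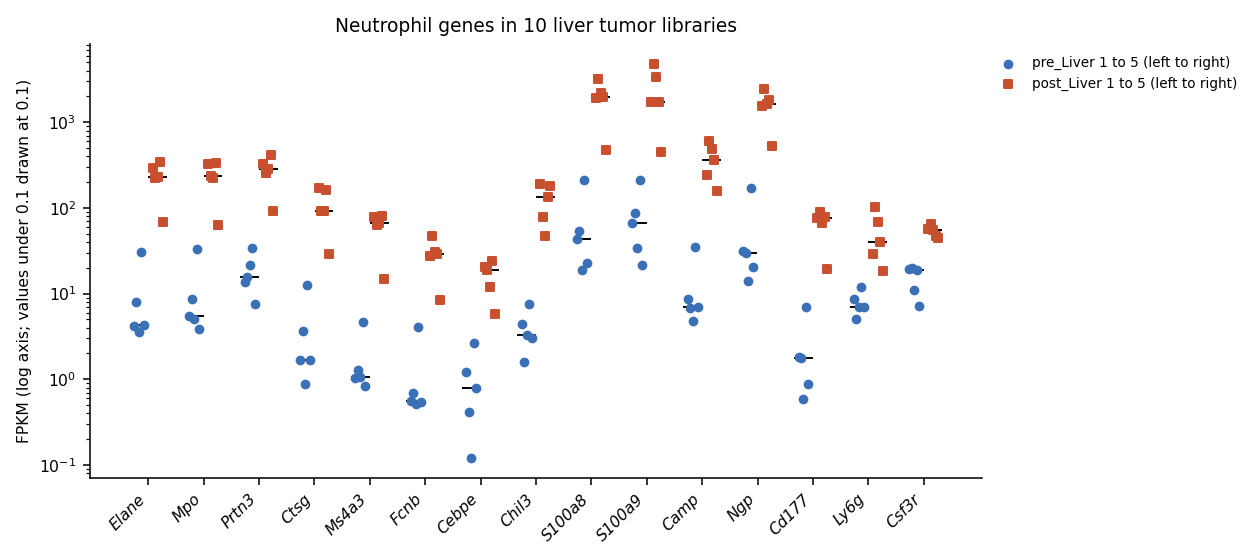
FPKM of 15 neutrophil genes in each library on a log axis, circles for pre_Liver 1 to 5 and squares for post_Liver 1 to 5, each drawn from left to right by library number, with a bar at the group median. Pre_Liver 4 is often the highest untreated library and post_Liver 5 often the lowest treated one, and the groups do not overlap for any gene drawn.

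Genes of secondary granules and of mature neutrophils rose as well. Of 23 listed genes, 20 were called higher and none lower without adjustment (median 2.55), and 13 higher and none lower with it (median 2.30). Mmp9, Wfdc21 and Acod1 were called in neither fit. Wfdc21 ran against the list and was called lower in 2 unadjusted fits that left out 1 library. These were the fits without pre_Liver 2 (−1.41, limma adjusted p = 0.0414) and without post_Liver 4 (−1.45, limma adjusted p = 0.0443). S100a8, a subunit of calprotectin that is abundant in neutrophil cytosol, stood at 43.2, 53.6, 18.7, 209.9 and 23 FPKM in pre_Liver 1 to 5 and 1894, 3169, 2169.6, 1961 and 470.1 FPKM in post_Liver 1 to 5. Its partner subunit S100a9 stood at 66.7, 87.4, 33.8, 213 and 21.6 FPKM in pre_Liver 1 to 5 and 1706, 4838, 3345, 1739.9 and 455 FPKM in post_Liver 1 to 5. For both, post_Liver 2 was the highest library and post_Liver 5 the lowest treated one, still above pre_Liver 4. The differences were 5.11 ± 0.68 and 4.88 ± 0.72 without adjustment (limma adjusted p = 0.00576 and 0.00783) and 4.69 ± 0.89 and 3.91 ± 0.84 with it (limma adjusted p = 0.0359 and 0.0434).

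Camp, the cathelicidin of secondary granules, stood at 8.63, 6.74, 4.78, 35.2 and 6.98 FPKM in pre_Liver 1 to 5 and 243, 608, 481, 359 and 157 FPKM in post_Liver 1 to 5. Pre_Liver 4 stood apart from the other untreated libraries, at 35.2 FPKM against at most 8.63 FPKM. Camp differed by 4.99 ± 0.52 (SE; limma adjusted p = 0.0033) without adjustment and 4.68 ± 0.68 (SE; limma adjusted p = 0.0267) adjusted for Alb. Ngp, a granule protein of the cystatin family, stood at 31.2, 29.7, 14.1, 171 and 20.4 FPKM in pre_Liver 1 to 5 and 1568, 2425, 1614, 1811 and 527 FPKM in post_Liver 1 to 5, and differed by 5.33 ± 0.64 without and 5.19 ± 0.85 with adjustment. Cd177, a surface protein that marks a subset of neutrophils, differed by 4.40 ± 0.51 and 4.22 ± 0.67. The stefin A genes Stfa2, BC100530 and Gm5483, inhibitors of cysteine proteases, differed by 5.71 ± 0.61, 4.98 ± 0.73 and 4.65 ± 0.62 unadjusted and by 5.24 ± 0.79, 3.81 ± 0.79 and 4.05 ± 0.78 adjusted. They are close copies in 1 cluster on chromosome 16, so the split of reads between them is uncertain. Stfa3, of the same cluster, was called only without adjustment, at 3.77 ± 0.60 (limma adjusted p = 0.0104) without and 2.95 ± 0.69 (limma adjusted p = 0.0559) with adjustment.

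Among receptors of mature neutrophils, Csf3r and Ltb4r1 were called in both fits. Csf3r, the receptor of the granulocyte growth factor G-CSF, stood at 19.4, 19.8, 10.9, 18.7 and 7.24 FPKM in pre_Liver 1 to 5 and 57.2, 64.6, 55.9, 47.5 and 44.9 FPKM in post_Liver 1 to 5. Untreated and treated libraries did not overlap, and the untreated ones already expressed it. Csf3r rose by 1.84 ± 0.27 (SE; limma adjusted p = 0.00775) without adjustment and 1.53 ± 0.32 (SE; limma adjusted p = 0.0397) adjusted for Alb. Ltb4r1, the leukotriene B4 receptor, rose by 2.27 ± 0.26 and 2.30 ± 0.34 (limma adjusted p = 0.00407 and 0.0267). Ly6g, the surface antigen that defines mouse neutrophils, and Cxcr2, the chemokine receptor that releases them from marrow, were called only without adjustment. Ly6g stood at 8.71, 5.08, 7.04, 12.1 and 6.97 FPKM in pre_Liver 1 to 5 and 29.2, 102, 68.7, 39.9 and 18.2 FPKM in post_Liver 1 to 5. All treated libraries exceeded the untreated ones, with post_Liver 2 and 3 the highest. The Ly6g difference was 2.35 ± 0.42 (SE; limma adjusted p = 0.0172) without adjustment and 1.76 ± 0.48 (SE; limma adjusted p = 0.0828) adjusted for Alb, and that of Cxcr2 1.88 ± 0.40 (SE; limma adjusted p = 0.0339) without adjustment and 1.39 ± 0.48 (SE; limma adjusted p = 0.141) adjusted for Alb. Without adjustment the Ly6g call was lost in 2 of the 10 fits that left out 1 library and the Cxcr2 call in 7. Ceacam10 and Lin28a, which stand on neither neutrophil list, were also called only without adjustment and were named for that reason. Ceacam10 differed by 2.42 ± 0.38 without and 2.00 ± 0.46 with adjustment (limma adjusted p = 0.0104 and 0.0555) and Lin28a by 1.67 ± 0.27 without and 1.43 ± 0.32 with adjustment (limma adjusted p = 0.0104 and 0.0508). Leaving out pre_Liver 4 and 5 left 12 of the 23 genes called without and 14 with adjustment. With post_Liver 2 and 3 averaged the counts of higher calls were 16 and 1, and without post_Liver 4 they were 20 and 0. The lowest unadjusted count with 1 library left out was 12, without pre_Liver 3.

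Genes of mast cells and basophils rose beside them. Of 9 tested genes (10 listed), 7 were called higher without adjustment (Cpa3, Prss34, Mcpt8, Fcer1a, Mcpt4, Gata2 and Hdc) and 3 with it, with medians of 1.68 and 1.64. Hdc, the histamine-forming enzyme, also stands in the neutrophil list. Cpa3, carboxypeptidase A3 of mast cell and basophil granules, stood at 2.65, 1.93, 1.1, 1.53 and 1.18 FPKM in pre_Liver 1 to 5 and 11.3, 11, 7.78, 18.6 and 9.25 FPKM in post_Liver 1 to 5. Post_Liver 4 was the highest library, and there was no overlap between groups. Its difference was 2.21 ± 0.24 (SE; limma adjusted p = 0.0036) without adjustment and 2.39 ± 0.29 (SE; limma adjusted p = 0.0133) adjusted for Alb. Prss34 and Mcpt8, proteases of mouse basophils, rose by 2.40 ± 0.35 and 2.07 ± 0.39 without adjustment. With adjustment Prss34 differed by 2.13 ± 0.44 (limma adjusted p = 0.0397) and Mcpt8 by 1.52 ± 0.43 (limma adjusted p = 0.0934). Fcer1a, the IgE-binding chain of the high-affinity receptor, rose by 1.40 ± 0.26 and 1.64 ± 0.32. The count of 7 dropped to 2 without pre_Liver 3, pre_Liver 5 or post_Liver 2, to 3 without pre_Liver 4 or post_Liver 3, to 4 without post_Liver 1 and to 2 without pre_Liver 4 and 5 together. The adjusted count of 3 went to 2 without post_Liver 1, pre_Liver 4 or pre_Liver 5, to 1 without pre_Liver 1, pre_Liver 3, post_Liver 2 or post_Liver 3, and to 0 without post_Liver 4. Median of ratios scaling and quantile normalization each left 4 of 9 called without adjustment.

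Platelet and megakaryocyte genes rose as well. Without adjustment 5 of 6 tested genes (10 listed) were called higher (Pf4, Ppbp, Itga2b, Gp9 and Gp1bb; median 1.23) and 3 with it (median 1.11). Gp1bb, a chain of the receptor for von Willebrand factor, stood at 0.44, 0.73, 0.52, 0.74 and 0.28 FPKM in pre_Liver 1 to 5 and 1.93, 2.45, 2.89, 2.89 and 2.58 FPKM in post_Liver 1 to 5. Its values were low throughout, and the groups did not overlap. Gp1bb rose by 1.20 ± 0.15 (SE; limma adjusted p = 0.00565) without adjustment and 1.13 ± 0.17 (SE; limma adjusted p = 0.0274) adjusted for Alb. The platelet chemokine Pf4 rose by 1.42 ± 0.24 and 1.53 ± 0.31 and Gp9 by 1.25 ± 0.20 and 1.10 ± 0.23. Ppbp differed by 1.85 ± 0.39 (limma adjusted p = 0.0328) and 2.07 ± 0.51 (limma adjusted p = 0.0675). The summed level of the 6 genes was 11.8 to 21.8 FPKM before and 33.7 to 62.1 FPKM after treatment. The 6 tested erythroid genes, a measure of red cell content, gave 0 calls in either fit and medians of 0.01 and 0.02, which changed sign with the scaling, and the part of blood content in the platelet and neutrophil rises was not tested. Without pre_Liver 4 and 5 the platelet counts were 2 and 4, and with post_Liver 2 and 3 averaged 3 and 0. Median of ratios scaling left 2 and quantile normalization 1 called without adjustment, and the adjusted count was 0 without pre_Liver 3 or any of post_Liver 2 to 4.

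Monocyte and macrophage genes were not called as a group. Of 20 genes, 0 were called without adjustment (median 0.57) and 1 with it (median 1.22). Itgam, an integrin chain of monocytes and neutrophils alike, and Ly6c2, of inflammatory monocytes, gave values near the threshold. Itgam differed by 1.46 ± 0.36 without and 1.55 ± 0.47 with adjustment (limma adjusted p = 0.0515 and 0.109), and Ly6c2 by 1.78 ± 0.48 without and 1.75 ± 0.65 with adjustment (limma adjusted p = 0.0645 and 0.162). Without pre_Liver 2, Itgam, Ly6c2 and Cd14 were called higher in the unadjusted fit. Mrc1, the mannose receptor of tissue macrophages, stood at 16.3, 8.38, 11.5, 17.7 and 16.9 FPKM in pre_Liver 1 to 5 and 28.7, 6.35, 4.93, 39 and 78.3 FPKM in post_Liver 1 to 5. The groups overlapped, and post_Liver 2 and 3, lowest in Alb, were also lowest in Mrc1. Its difference was 0.52 ± 0.66 (SE; limma adjusted p = 0.542) without adjustment and 2.10 ± 0.41 (SE; limma adjusted p = 0.037) adjusted for Alb. Kupffer cells, the resident macrophages of the liver, gave 1 lower call among 9 genes without adjustment and 1 higher call with it. Timd4, a receptor for dying cells, differed by −1.60 ± 0.38 (limma adjusted p = 0.0467) without and −0.78 ± 0.29 (limma adjusted p = 0.166) with adjustment, and C6, a complement component, by 0.24 ± 0.48 (limma adjusted p = 0.699) without and 1.40 ± 0.28 (limma adjusted p = 0.037) with adjustment. Clec4f, a lectin of these cells, differed by −1.56 ± 0.51 (limma adjusted p = 0.0931) without and −0.39 ± 0.36 (limma adjusted p = 0.596) with adjustment. Of the 9 genes, 8 had a called positive Alb slope, and 5 were called lower in the unadjusted fit without post_Liver 4.

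Lymphocyte and checkpoint genes showed few calls. Of 18 T and NK cell genes, 11 dendritic cell genes and 9 B and plasma cell genes, 0 were called in either fit, with unadjusted medians of −0.12, −0.14 and −0.17. The adjusted medians were −0.02, −0.23 and 0.76 in that order, and the adjusted B and plasma cell differences ran from −0.56 to 3.79. The summed level of the B and plasma cell list spanned 46.1 to 198 FPKM in pre_Liver and 11.6 to 1636 FPKM in post_Liver. Cd8a, the co-receptor of cytotoxic T cells, stood at 13.8, 8.67, 18.2, 4.15 and 3.93 FPKM in pre_Liver 1 to 5 and 8.24, 6.97, 5.25, 7.12 and 25.1 FPKM in post_Liver 1 to 5. Post_Liver 5 was the highest of all and the remaining treated libraries lay among the untreated ones. Cd8a differed by 0.10 ± 0.48 without and 0.24 ± 0.64 with adjustment (limma adjusted p = 0.879 and 0.877). Pdcd1 (the receptor PD-1) differed by 0.41 ± 0.46 without and 1.02 ± 0.54 with adjustment (limma adjusted p = 0.5 and 0.319), and Cd274 (its ligand PD-L1) by −0.16 ± 0.49 without and −0.54 ± 0.62 with adjustment (limma adjusted p = 0.801 and 0.672). Cxcl9, a chemokine induced by interferon gamma, differed by −0.83 ± 0.50 without and −0.45 ± 0.64 with adjustment (limma adjusted p = 0.241 and 0.735). Arg1, an arginase of hepatocytes and of some myeloid cells, differed by −0.20 ± 0.59 without and 1.15 ± 0.41 with adjustment (limma adjusted p = 0.795 and 0.154), with opposite signs in the 2 fits. Xcr1, of cross-presenting dendritic cells, differed by −0.87 ± 0.35 without and −1.42 ± 0.38 with adjustment (limma adjusted p = 0.134 and 0.0811). Without pre_Liver 4 and 5 Xcr1 was called lower in both fits, at −1.44 and −1.65 (limma adjusted p = 0.0358 and 0.0137). With adjustment it was also called without pre_Liver 4 alone (−1.53, limma adjusted p = 0.0491) and without post_Liver 2 and 3 (−1.61, limma adjusted p = 0.0389). Clec9a, of the same cells, and Siglech, of plasmacytoid dendritic cells, were called lower with adjustment when pre_Liver 4 and 5 were left out, at −1.02 and −0.98 (limma adjusted p = 0.0282 and 0.0439). Foxp3 averaged under 1 FPKM and was not tested. Vsir was the only one of 17 checkpoint genes called. Vsir encodes VISTA, an inhibitory receptor that myeloid cells also carry, and stood at 16.2, 14.6, 7.63, 11.4 and 7.57 FPKM in pre_Liver 1 to 5 and 39.8, 27.2, 25.1, 38.2 and 31.4 FPKM in post_Liver 1 to 5. No treated library reached down to the untreated range. It rose by 1.45 ± 0.24 (SE; limma adjusted p = 0.0128) without adjustment and 1.56 ± 0.31 (SE; limma adjusted p = 0.037) adjusted for Alb. Gzmc was the only one of 13 cytotoxic effector genes called, at 1.74 ± 0.30 (SE; limma adjusted p = 0.0155) without adjustment and 1.07 ± 0.22 (SE; limma adjusted p = 0.0389) adjusted for Alb.

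The largest falls were in the major urinary protein genes, which hepatocytes express under growth hormone and which encode pheromone-binding proteins. Of 13 tested Mup genes and pseudogenes, 10 were called lower and none higher in each fit, with a median of −5.65 without and −3.84 with adjustment. They are near-identical copies in a cluster on chromosome 4, so the split of reads between them is uncertain. Mup3, a member of the cluster, stood at 788, 288, 1101, 1048 and 866 FPKM in pre_Liver 1 to 5 and 5.76, 6.54, 4.85, 49.1 and 46.3 FPKM in post_Liver 1 to 5. All treated libraries lay far below all untreated ones, and post_Liver 1 stood at 5.76 FPKM although its Alb level exceeded that of pre_Liver 2. The Mup3 difference was −5.65 ± 0.70 (SE; limma adjusted p = 0.00555) without adjustment and −4.23 ± 0.61 (SE; limma adjusted p = 0.0267) adjusted for Alb. Mup9 stood at 1904, 369, 3253, 3264 and 2163 FPKM in pre_Liver 1 to 5 and 0, 1.4, 0.71, 9.43 and 3.79 FPKM in post_Liver 1 to 5. It was listed at 0 in post_Liver 1, and pre_Liver 2 was the lowest untreated library. Mup9 gave the largest fall of all genes by the rule for named genes, at −9.23 ± 0.73 (SE; limma adjusted p = 0.00142) without adjustment and −8.08 ± 0.80 (SE; limma adjusted p = 0.0075) adjusted for Alb. Mup2, Mup10, Mup12, Mup16 and Mup19 fell by 7.13 ± 1.12, 6.68 ± 1.19, 6.28 ± 1.00, 6.82 ± 1.15 and 7.00 ± 1.34 (SE) on the log2 scale without adjustment and by 4.66 ± 0.88, 3.84 ± 0.78, 4.02 ± 0.75, 4.21 ± 0.85 and 3.65 ± 0.70 with it. The pseudogene Mup-ps12 fell by 5.52 ± 0.63 and 4.89 ± 0.78, and the gene model Gm21320 was called only without adjustment, at −5.72 ± 1.13 (limma adjusted p = 0.0247) without and −3.11 ± 0.79 (limma adjusted p = 0.0729) with adjustment.

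A few other genes of hepatocytes also fell in both fits. Fabp1, the fatty acid binding protein of liver, stood at 2798, 916, 3999, 2387 and 2623 FPKM in pre_Liver 1 to 5 and 36.4, 34.3, 27.4, 252 and 204 FPKM in post_Liver 1 to 5. Every treated library lay below every untreated one. It fell by 5.00 ± 0.69 (SE; limma adjusted p = 0.00606) without and 3.60 ± 0.60 (SE; limma adjusted p = 0.0315) with adjustment. Sult2a8, a sulfotransferase of liver, fell by 4.85 ± 0.65 and 3.35 ± 0.44 (limma adjusted p = 0.00576 and 0.0189). Fabp1 and Sult2a8 were named after their values were seen. Mlxipl, the carbohydrate response factor ChREBP, was called lower only without adjustment, at −2.76 ± 0.44 (limma adjusted p = 0.0104) without and −2.23 ± 0.52 (limma adjusted p = 0.0559) with adjustment. Most hepatocyte genes were not called. All 24 genes of the hepatocyte list had a negative difference without adjustment (median −2.31) and 0 were called, and with adjustment the median of 23 genes was 0.01 and 1 was called. That gene was Tat, the tyrosine aminotransferase, at 99.7, 26, 273, 1029 and 1258 FPKM in pre_Liver 1 to 5 and 174, 5.43, 5.5, 847 and 215 FPKM in post_Liver 1 to 5, which differed by −1.90 ± 1.55 (limma adjusted p = 0.356) without and 2.22 ± 0.44 (limma adjusted p = 0.037) with adjustment. Ttr, the transthyretin gene, differed by −2.85 ± 0.84 (SE; limma adjusted p = 0.0751) without adjustment and −0.67 ± 0.26 (SE; limma adjusted p = 0.183) adjusted for Alb. In the unadjusted fit 11 of the 24 were called lower without pre_Liver 2 and 16 without post_Liver 4.

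Most genes that take up, oxidise and export paclitaxel or other foreign compounds were not called. Of 25 listed genes, 3 were called lower and none higher in each fit (Slco1a1, Cyp2c29 and Cyp2c37). Of all genes, 1.41% were called lower without and 0.723% with adjustment, a smaller share than in this list. The medians of the list were −1.81 and −0.20, and 20 of its genes had a called positive Alb slope. Slco1a1, an organic anion uptake carrier, stood at 10.6, 5.39, 22.5, 9.82 and 7.52 FPKM in pre_Liver 1 to 5 and 0.06, 0.14, 0.25, 2.52 and 0.5 FPKM in post_Liver 1 to 5. Only post_Liver 4 exceeded 1 FPKM among the treated libraries. Slco1a1 differed by −2.86 ± 0.40 (SE; limma adjusted p = 0.00678) without adjustment and −2.36 ± 0.48 (SE; limma adjusted p = 0.0389) adjusted for Alb. Cyp2c29 and Cyp2c37, cytochromes P450 of the 2C family, fell by 4.29 ± 1.03 and 4.29 ± 0.97 unadjusted and by 1.57 ± 0.33 and 1.73 ± 0.30 adjusted. Cyp3a11, the main drug-oxidising P450 of mouse liver, stood at 269, 71.3, 379.7, 344 and 661 FPKM in pre_Liver 1 to 5 and 111, 31.8, 24.1, 179 and 221 FPKM in post_Liver 1 to 5. The groups overlapped. It differed by −1.77 ± 0.74 (SE; limma adjusted p = 0.138) without adjustment and 0.07 ± 0.37 (SE; limma adjusted p = 0.938) adjusted for Alb. Slco1b2, the carrier that brings paclitaxel into hepatocytes, differed by −2.56 ± 0.84 (limma adjusted p = 0.0919) without and −0.35 ± 0.28 (limma adjusted p = 0.514) with adjustment. Abcb1a and Abcb1b, the P-glycoprotein exporters, stood at 1.08 to 3.17 FPKM before and 0.35 to 2.19 FPKM after treatment and at 0.64 to 4.12 FPKM before and 1.52 to 4.09 FPKM after treatment, in that order. Abcb1a differed by −0.58 ± 0.28 without and −0.01 ± 0.22 with adjustment (limma adjusted p = 0.171 and 0.993) and Abcb1b by 0.53 ± 0.34 without and 0.59 ± 0.44 with adjustment (limma adjusted p = 0.264 and 0.492). The unadjusted count of 3 became 15 without pre_Liver 2, 13 without post_Liver 4, 2 without post_Liver 5 and 1 without any of the remaining libraries left out in turn. The adjusted count of 3 became 0 without pre_Liver 1, pre_Liver 3 or any of post_Liver 1 to 4, 1 without pre_Liver 4, and 2 without pre_Liver 5 or post_Liver 5.

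Acute phase genes, which hepatocytes raise in inflammation, had a median of −0.78 without and 0.75 with adjustment over 22 genes. Lcn2, an iron-binding protein that neutrophil granules also contain, was the 1 higher call without adjustment, at 507, 692, 584, 239.7 and 159 FPKM in pre_Liver 1 to 5 and 1769, 1632, 1390.3, 2269 and 892 FPKM in post_Liver 1 to 5. Its groups did not overlap, and the difference was 2.00 ± 0.44 (SE; limma adjusted p = 0.0376) without adjustment and 1.69 ± 0.55 (SE; limma adjusted p = 0.123) adjusted for Alb. Orm3 and Serpina3n were the 2 higher calls with adjustment. Orm3, an orosomucoid, differed by 0.24 ± 0.68 without and 1.90 ± 0.40 with adjustment (limma adjusted p = 0.791 and 0.0405), and Serpina3n, a serine protease inhibitor, by −0.80 ± 0.94 without and 1.64 ± 0.35 with adjustment (limma adjusted p = 0.51 and 0.0411). The sign of Serpina3n was not the same in both fits. Both belong to families of close copies, which makes their values uncertain. The 21 genes of bile acid, sterol and fatty acid metabolism had medians of −1.48 and −0.50, and 15 had a called positive Alb slope. Ppara, the nuclear receptor that drives fatty acid oxidation in fasting, differed by −2.48 ± 0.63 (limma adjusted p = 0.0545) without and −0.90 ± 0.32 (limma adjusted p = 0.155) with adjustment. In the unadjusted fit 18 of the 21 were called lower without pre_Liver 2 and 14 without post_Liver 4.

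**Figure D4:**
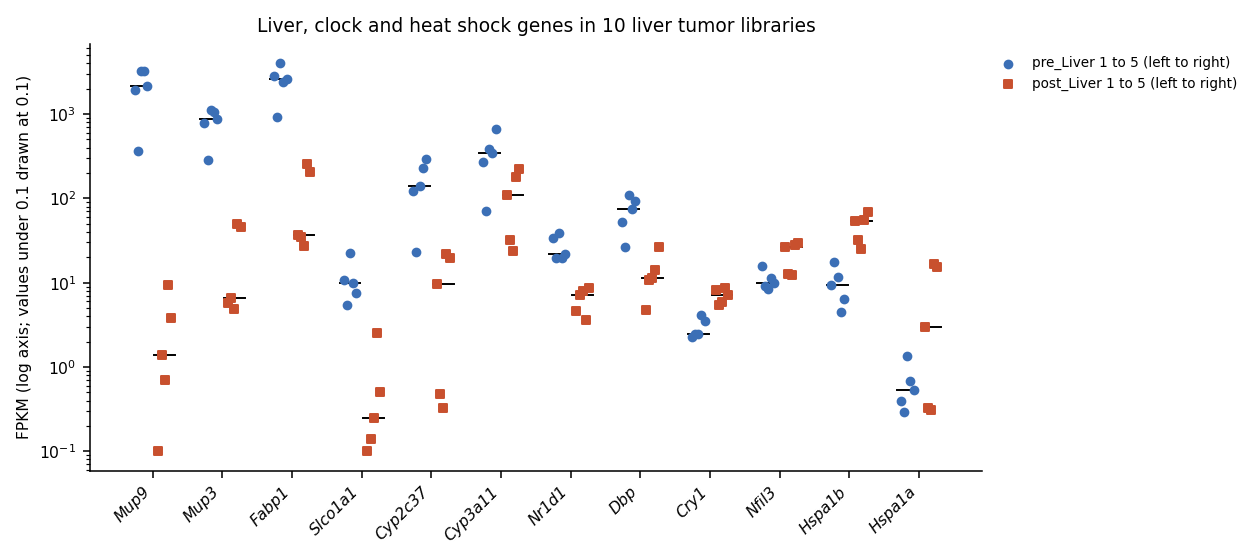
FPKM of 12 hepatocyte, drug metabolism, clock and heat shock genes in each library on a log axis, drawn as in the plot of neutrophil genes, with values under 0.1 FPKM at 0.1. Mup9 and Fabp1 separate fully, Cyp3a11 overlaps, and Nr1d1 and Cry1 separate in opposite directions.

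Clock genes changed in opposite directions. In the daily clock, CLOCK and BMAL1 drive Per, Cry, Nr1d1 and Dbp through E-boxes, CRY proteins repress that drive, and NR1D1 (REV-ERB alpha) represses Nfil3 and Bmal1. Of 17 tested clock genes, 1 was called higher and 2 lower without adjustment and 2 higher and 1 lower with it. Of all genes, 2.24% were called higher and 1.41% lower without adjustment, and 1.74% and 0.723% with it. With 1 library left out, the unadjusted clock counts ran from 0 to 4 higher and from 1 to 7 lower. The adjusted counts ran from 0 to 2 in each direction. The sequence before the start of Nr1d1, the clock gene with the lowest p without adjustment, is shown to set its letters beside those of the other clock genes. Searched in it were CACGTG (E-box), TTANGTAA (D-box) and AGGTCA (the half-site of ROR and REV-ERB receptors), on both strands, and no letter is in capitals because none was found.
Nr1d1: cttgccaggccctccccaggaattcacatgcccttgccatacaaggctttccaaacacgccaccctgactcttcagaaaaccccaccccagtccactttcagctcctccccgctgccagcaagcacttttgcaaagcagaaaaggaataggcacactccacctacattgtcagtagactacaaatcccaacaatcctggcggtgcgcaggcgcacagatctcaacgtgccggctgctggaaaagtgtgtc
This run lies at chr11:98775378-98775627 on the minus strand (GRCm38.p6, RefSeq). Of 15 listed clock genes with an entry, 5 held CACGTG in such a window (Bhlhe41, Ciart, Cry1, Per1 and Tef), 1 TTANGTAA (Per3) and 4 AGGTCA (Clock, Nfil3, Nr1d2 and Per1), beside 6.02%, 2.06% and 14.0% of all windows.

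Nr1d1 stood at 33.8, 19.6, 38.7, 19.5 and 21.7 FPKM in pre_Liver 1 to 5 and 4.6, 7.12, 8.02, 3.58 and 8.73 FPKM in post_Liver 1 to 5. The untreated libraries were all above 19 FPKM and the treated ones all under 9 FPKM. The difference was −1.90 ± 0.28 (SE; limma adjusted p = 0.00772) without adjustment and −2.18 ± 0.33 (SE; limma adjusted p = 0.0274) adjusted for Alb. Dbp, a transcription factor whose level swings widely over the day, stood at 52.5, 26.6, 111, 74.8 and 92.5 FPKM in pre_Liver 1 to 5 and 4.77, 10.7, 11.3, 14 and 26.4 FPKM in post_Liver 1 to 5. Post_Liver 5 reached 26.4 FPKM, just under pre_Liver 2. Dbp differed by −2.35 ± 0.46 (SE; limma adjusted p = 0.0233) without adjustment and −1.93 ± 0.57 (SE; limma adjusted p = 0.102) adjusted for Alb. Cry1, a repressor of the clock, stood at 2.25, 2.44, 2.49, 4.16 and 3.48 FPKM in pre_Liver 1 to 5 and 8.08, 5.45, 5.91, 8.75 and 7.08 FPKM in post_Liver 1 to 5. Every treated library exceeded every untreated one. Cry1 rose by 1.03 ± 0.19 (SE; limma adjusted p = 0.0189) without adjustment and 1.36 ± 0.16 (SE; limma adjusted p = 0.0133) adjusted for Alb. Nfil3, which opposes Dbp at D-boxes, was called only with adjustment, at 0.87 ± 0.29 (SE; limma adjusted p = 0.0959) without adjustment and 1.44 ± 0.25 (SE; limma adjusted p = 0.0327) adjusted for Alb. The hour of tissue collection is not given in the sources used here, so time of day was not tested. Without adjustment the Nr1d1 call held with any 1 library left out and with adjustment in 5 of 10 such fits; for Cry1 the numbers were 8 and 9.

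Carcinoma and proliferation genes were not called with all 10 libraries. All 17 tested epithelial carcinoma genes (19 listed) were uncalled in both fits, with a median of 1.39 without and 0.03 with adjustment, and 12 had a called negative Alb slope. Epcam differed by 1.67 ± 0.88 (SE; limma adjusted p = 0.2) without adjustment and −0.14 ± 0.77 (SE; limma adjusted p = 0.942) adjusted for Alb, and Krt8, a keratin of simple epithelia, by 0.90 ± 0.30 (limma adjusted p = 0.0979) without and 0.60 ± 0.36 (limma adjusted p = 0.384) with adjustment. Of 29 mitosis and 23 DNA replication genes 0 were called in either fit, where 3.64% of all genes were called without and 2.46% with adjustment. Their medians were 0.82 and 0.77 unadjusted and −0.06 and 0.05 adjusted. Mki67, a marker of cycling cells, stood at 13.7, 30.1, 11.8, 3.3 and 3.8 FPKM in pre_Liver 1 to 5 and 38, 31.9, 26.9, 12.7 and 14.9 FPKM in post_Liver 1 to 5. The groups overlapped, with pre_Liver 4 and 5 the lowest. Mki67 differed by 1.20 ± 0.54 (limma adjusted p = 0.158) without and 0.28 ± 0.57 (limma adjusted p = 0.826) with adjustment. In the unadjusted fit without pre_Liver 2, 3 carcinoma (Krt8, Spint1 and St14), 2 mitosis (Bub3 and Mki67) and 4 DNA replication genes (Cdc6, Fen1, Mcm2 and Rrm2) were called higher, and without post_Liver 4 the carcinoma genes Ovol1 and Spint1. Tyms was called lower with adjustment when pre_Liver 4 and 5 were left out.

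Genes of the drug's target gave 1 call in 19. Tuba8, an alpha tubulin isotype also found in platelets, stood at 1.36, 0.68, 0.76, 1.24 and 2.24 FPKM in pre_Liver 1 to 5 and 6.54, 6.99, 5.18, 8.12 and 2.87 FPKM in post_Liver 1 to 5. The groups did not overlap, and post_Liver 5 was closest to the untreated libraries. Tuba8 rose by 1.60 ± 0.27 (SE; limma adjusted p = 0.013) without adjustment and 1.74 ± 0.34 (SE; limma adjusted p = 0.0368) adjusted for Alb. Tubb5, the main beta tubulin of dividing cells, differed by 0.94 ± 0.47 (limma adjusted p = 0.186) without and 0.21 ± 0.51 (limma adjusted p = 0.86) with adjustment, and Tubb3 averaged under 1 FPKM. Of 21 p53 target genes, Sesn1 was called only without adjustment, at 0.66 ± 0.14 without and 0.52 ± 0.15 with adjustment (limma adjusted p = 0.0367 and 0.0958), and Trp53inp1 only with it, at 0.81 ± 0.25 without and 1.27 ± 0.23 with adjustment (limma adjusted p = 0.084 and 0.0351). Cdkn1a, the cell cycle inhibitor p21, stood at 24.6, 18.7, 12.2, 10.6 and 7.43 FPKM in pre_Liver 1 to 5 and 37, 16.8, 14.9, 42.7 and 45.7 FPKM in post_Liver 1 to 5. Post_Liver 1, 4 and 5 lay above all untreated libraries, and post_Liver 2 and 3 among them. Its difference was 1.02 ± 0.40 (limma adjusted p = 0.124) without and 1.47 ± 0.48 (limma adjusted p = 0.123) with adjustment. Without pre_Liver 2 the unadjusted fit called 6 tubulin and 5 p53 target genes higher. The 27 interferon response, 24 BCL2 family and caspase, 13 MHC class I and 10 MHC class II genes gave 0 calls in either fit. Without pre_Liver 2 the unadjusted fit called 8 BCL2 family genes higher, among them Bcl2, Bid and Bak1, and the fit without post_Liver 4 called 2 interferon response genes higher (Ddx58 and Ifit1).

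Few stromal genes were called with all 10 libraries. Of 11 sinusoidal endothelial genes 0 were called in either fit (medians −1.22 and 0.13), and all 11 had a called positive Alb slope. Stab2, a scavenger receptor of these cells, differed by −1.22 ± 0.43 (limma adjusted p = 0.106) without and −0.26 ± 0.31 (limma adjusted p = 0.686) with adjustment. The unadjusted fit called 4 of the 11 lower without post_Liver 4 (Clec4g, Dnase1l3, Gpr182 and Stab2), and the adjusted fit 2 higher without pre_Liver 2 (Lyve1 and Stab1). Calls with adjustment were Vwf among 14 endothelial genes, Dcn (decorin) among 21 fibroblast and collagen genes and Hand2 among 11 stellate cell genes, none of which was called without it. The fibroblast and collagen medians were −0.03 without and 0.70 with adjustment. Without pre_Liver 2 the adjusted fit also called Col6a1, Pdgfra, Pdgfrb and Postn higher, where it called 4.12% of all genes higher. Vwf differed by 0.03 ± 0.32 without and 0.80 ± 0.16 with adjustment (limma adjusted p = 0.948 and 0.0397), Dcn by 0.27 ± 0.54 without and 1.59 ± 0.29 with adjustment (limma adjusted p = 0.693 and 0.0351) and Hand2 by 0.35 ± 0.47 without and 1.51 ± 0.25 with adjustment (limma adjusted p = 0.56 and 0.0314). Mmp7, a matrix metalloproteinase of epithelial cells, stood at 0.36, 1.3, 1.65, 0.14 and 0.56 FPKM in pre_Liver 1 to 5 and 6.56, 3.82, 4.85, 22.1 and 30.4 FPKM in post_Liver 1 to 5. The groups did not overlap, and post_Liver 4 and 5 were the highest. Mmp7 rose by 2.67 ± 0.53 (SE; limma adjusted p = 0.0256) without adjustment and 3.45 ± 0.60 (SE; limma adjusted p = 0.0327) adjusted for Alb. Mmp25, of neutrophil membranes, was called only without adjustment, at 1.14 ± 0.28 (limma adjusted p = 0.0495) without and 1.39 ± 0.34 (limma adjusted p = 0.0639) with adjustment. Genes with the lowest p among those called only with adjustment were Cebpd, a C/EBP factor induced in the acute phase, Col6a5, a collagen VI chain, Gda, the guanine deaminase, and Tle2, a co-repressor. Cebpd differed by 1.39 ± 0.38 without and 2.31 ± 0.21 with adjustment (limma adjusted p = 0.0645 and 0.00653) and Col6a5 by 1.60 ± 0.71 without and 3.36 ± 0.39 with adjustment (limma adjusted p = 0.153 and 0.0133). Gda differed by 0.95 ± 0.32 without and 1.70 ± 0.20 with adjustment (limma adjusted p = 0.0982 and 0.0133) and Tle2 by −0.17 ± 0.52 without and −1.52 ± 0.18 with adjustment (limma adjusted p = 0.808 and 0.0133).

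Stress genes were called mainly with adjustment, and their counts leaned on single libraries. Among 18 immediate early and dissociation stress genes, which tissue digestion can also induce, 1 was called higher without and 4 with adjustment, where 2.24% and 1.74% of all genes were called higher. The unadjusted count was 6 without pre_Liver 2 and 0 without post_Liver 1, and the adjusted count was 0 without pre_Liver 3 or any of post_Liver 2 to 4. Hspa1b, an inducible HSP70 chaperone, stood at 9.45, 17.5, 11.8, 4.47 and 6.43 FPKM in pre_Liver 1 to 5 and 53.8, 31.9, 25.1, 55.2 and 69.8 FPKM in post_Liver 1 to 5. The groups did not overlap. Hspa1b rose by 2.17 ± 0.37 (SE; limma adjusted p = 0.0142) without adjustment and 2.39 ± 0.48 (SE; limma adjusted p = 0.0389) adjusted for Alb. Its near-identical copy Hspa1a, with which reads can be exchanged, and the co-chaperone Dnajb1 were called only with adjustment, as was the transcription factor Klf2. Hspa1a differed by 1.51 ± 0.74 without and 3.18 ± 0.56 with adjustment (limma adjusted p = 0.181 and 0.0331) and Dnajb1 by 0.99 ± 0.24 without and 1.41 ± 0.23 with adjustment (limma adjusted p = 0.0501 and 0.0292). Klf2 differed by 0.74 ± 0.28 without and 1.25 ± 0.27 with adjustment (limma adjusted p = 0.119 and 0.0445). The part of handling in these values was not tested. Of 26 oxidative phosphorylation genes 0 were called (medians −0.24 and −0.30, beside 0.37 and 0.01 for all genes). Without adjustment 1 of the 26 differences was positive, and with adjustment all were negative (highest −0.0124). In FPKM 6 of the 26 lay wholly lower after treatment, where 1.47% of all genes did. Ndufa9, a complex I subunit, differed by −0.48 ± 0.13 (limma adjusted p = 0.0629) without and −0.50 ± 0.14 (limma adjusted p = 0.0917) with adjustment. In the unadjusted fit 7 of the 26 were called lower without pre_Liver 2. Pdk1 was called lower among 20 hypoxia genes and Dnajb9 higher among 17 genes of the unfolded protein response, both only with adjustment. Pdk1 differed by −0.38 ± 0.28 without and −1.03 ± 0.18 with adjustment (limma adjusted p = 0.317 and 0.0331) and Dnajb9 by 0.08 ± 0.38 without and 1.02 ± 0.17 with adjustment (limma adjusted p = 0.874 and 0.0292). Markers of neighbouring tissues were low or few: of 8 adipocyte, 9 skeletal muscle and 8 pancreatic acinar genes, 3, 3 and 1 were tested. Car3 and Cela1 were called lower only without adjustment, at −5.44 ± 1.02 without and −3.39 ± 0.93 with adjustment (limma adjusted p = 0.0209 and 0.085) for Car3, which hepatocytes also express, and −1.47 ± 0.33 without and −0.89 ± 0.32 with adjustment (limma adjusted p = 0.0393 and 0.155) for Cela1.

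**Figure D5:**
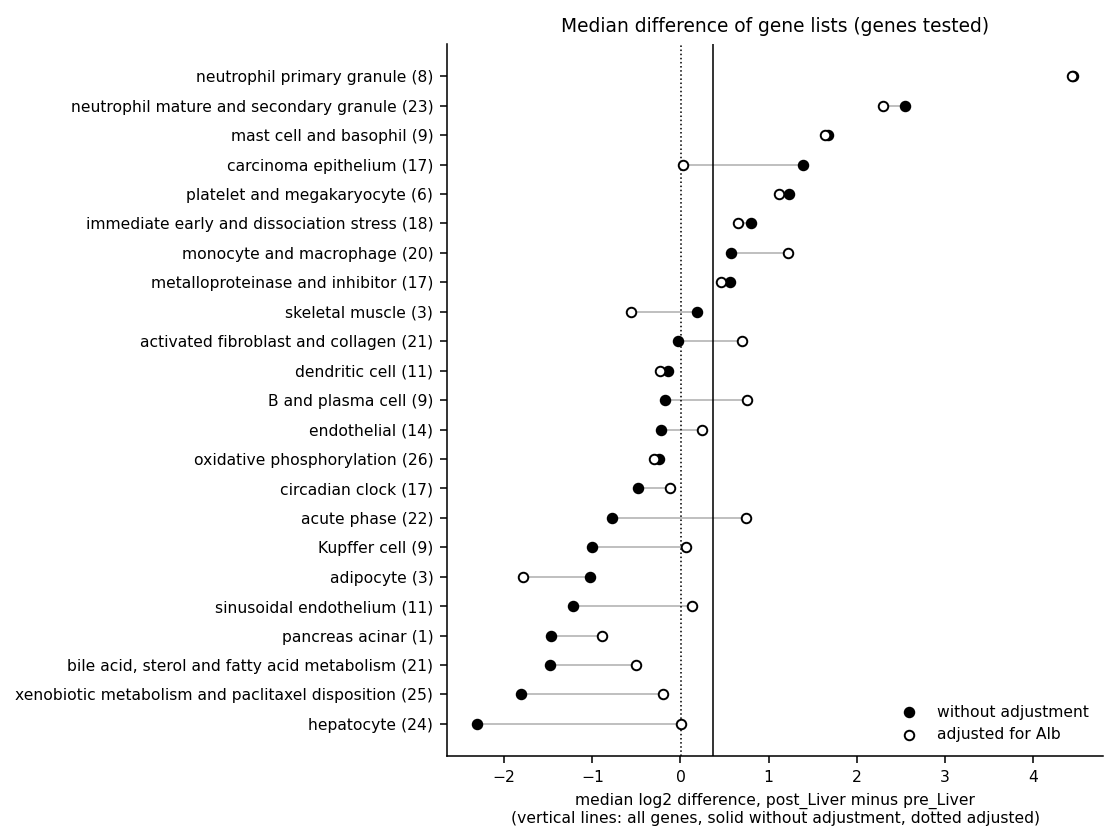
Median log2 difference, post_Liver minus pre_Liver, of the 23 gene lists described, with filled points for the fit without adjustment, open points for the fit adjusted for Alb and the number of genes tested in parentheses. The hepatocyte and carcinoma medians move to near 0 with adjustment, and the 2 neutrophil medians stay above 2.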

How the data were processed

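Poly(A) RNA of digested, frozen tumor cell suspensions was sequenced, per the labels' protocols. Per the submitters' processing notes, fastp and StringTie were used with GRCm38/mm10, at unstated versions. The authors deposited the liver values as FPKM rounded to 2 decimals, as read from the values since the file header names no unit (column sums of 511644 to 547589). From a second table, deposited by the authors as TPM shifted by a constant per gene and treated here as a score, only the constants of the pre_Liver columns were read. The subcutaneous table was not used here. Plin2, a name on 2 rows, was left out, and 8 of 728 entries in 43 gene lists had no row.

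Values were analysed as log2(FPKM + 1), which understates changes of low genes. Genes with a mean of at least 1 FPKM entered limma 3.58.1 in R 4.3.3, by lmFit and a trended eBayes, modelled on group alone or with log2(Alb + 1) added, and tested on simulated data. Tables and plots used Python 3.11.15, pandas 2.3.3, NumPy 2.4.6, SciPy 1.17.1 and matplotlib 3.10.9. Coordinates are of GENCODE M21 (GRCm38), counted from 1. Per fit, the 8 largest rises and 8 largest falls with a mean of at least 5 FPKM in the higher group and no overlap were named, up to 4 genes per list by p, a fixed set, and 4 genes called in 1 fit only. Cebpe, Cxcr2, Csf3r and single calls of lists were named after their values were seen. 1 gene that the rule names is not reported here. The members and lists were chosen with earlier results of these data known. Alternatives were the pseudocount, low-value filter, scaling, covariate, weights, left-out libraries and a replicate block.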

Additional observations from a re-analysis of the deposited data

Results flagged for a closer look

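Single libraries stood apart from the other 4 of their group for some of the genes with printed values, by Dixon's test on log2(FPKM + 1), in 18 of 204 groups of 5 tested. Chance flags about 1 in 20 groups. Post_Liver 5 was the separate low library for neutrophil and basophil genes, with Elane at 69 FPKM (others 225 to 340.2), Mpo at 63.5 FPKM (others 225 to 332), Ms4a3 at 14.8 FPKM (others 62.5 to 81) and S100a8 at 470.1 FPKM (others 1894 to 3169). The same held for Ngp at 527 FPKM (others 1568 to 2425), Cd177 at 19.5 FPKM (others 67.5 to 90.5) and Mcpt8 at 2.85 FPKM (others 10.3 to 15.7). Pre_Liver 4 was the separate high library among the untreated ones for Ms4a3 at 4.72 FPKM (others 0.84 to 1.28), Fcnb at 4.07 FPKM (others 0.51 to 0.69), Camp at 35.2 FPKM (others 4.78 to 8.63) and Ceacam10 at 1.12 FPKM (others 0 to 0.14). It was also high for Lin28a at 0.37 FPKM (others 0.02 to 0.08). Pre_Liver 2, the untreated library lowest in Alb, was low for Mup9 at 369 FPKM (others 1904 to 3264), Mup2 at 792 FPKM (others 3538 to 5377), Mup3 at 288 FPKM (others 788 to 1101) and Mup10 at 786 FPKM (others 3361 to 5268). Slco1a1 had post_Liver 4 as its separate highest library, at 2.52 FPKM against 0.06 to 0.5 FPKM in the others of that group. Cd8a had post_Liver 5 as its separate highest library, at 25.1 FPKM against 5.25 to 8.24 FPKM in the others of that group.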

How the results depend on the processing

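The unadjusted count of 474 became 221 with median of ratios scaling, 7257 with array weights (whose estimate did not converge), 78 without pre_Liver 4 and 5, 159 with post_Liver 2 and 3 averaged and 117 to 3532 with 1 library left out. The adjusted count of 320 became 753 with median of ratios scaling, 616 with quantile normalization, 6673 with array weights, 524 without pre_Liver 4 and 5, 15 with post_Liver 2 and 3 averaged and 1 to 811 with 1 library left out. Leaving out post_Liver 2 and 3, an alternative chosen after seeing the data, gave 139 and 477. The replicate block gave 3456 and 0 calls. Deviations of same-numbered libraries from their group means correlated at −0.12, 0.677, −0.014, 0.746 and 0.261 for numbers 1 to 5. Deviations also follow the Alb level, so these values cannot show whether the numbers pair the libraries. The cause of these changes in count was not tested. Median of ratios scaling moved the median of all genes from 0.37 to 0.03, and quantile normalization to 0.11. The Alb difference passed its permutation test without pre_Liver 2 (−3.14, exact p = 0.0159) and without post_Liver 4 (−3.26, exact p = 0.0317), within a range of −3.26 to −2.05 with 1 library left out.

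Of the values for named genes under an alternative, 3781 kept direction and side of the threshold, 773 lost and 148 gained a call, and 90 changed sign, all of differences not called in the fit concerned. Without adjustment, the changed signs were with median of ratios scaling C6 −0.12, Orm3 −0.10, Cd8a −0.25, Dcn −0.13, Vwf −0.20 and Dnajb9 −0.31, with quantile normalization C6 −0.0333, Orm3 −0.0266, Cd8a −0.21, Vwf −0.23 and Dnajb9 −0.0741, with array weights C6 −0.0468, Orm3 −0.28 and Cd8a −0.64. Further values were with post_Liver 2 and 3 left out Serpina3n 0.82, Arg1 0.42 and Tat 0.35, with pre_Liver 4 and 5 left out Pdcd1 −0.0046, Cd8a −0.49 and Arg1 0.40, with post_Liver 2 and 3 averaged Arg1 0.0345. Further values were with a pseudocount of 0.1 Vwf −0.0919, with hepatocyte genes left out Vwf −0.0213 and Dnajb9 −0.0284. With 1 library left out, the unadjusted ranges were −0.0596 to 0.55 for C6, −0.26 to 0.68 for Orm3, −0.47 to 0.11 for Cd274, −0.25 to 0.36 for Cd8a, −0.64 to 0.0624 for Arg1, −0.48 to 0.0841 for Tle2, −0.0168 to 0.60 for Dcn, −0.20 to 0.22 for Vwf and −0.17 to 0.28 for Dnajb9. Adjusted for Alb, the changed signs were with quantile normalization Epcam 0.58 and Cyp3a11 −0.40, with the replicate block Epcam 1.07, Cyp3a11 −0.0111, Slco1b2 0.23, Cxcl9 0.59, Clec4f 0.0757 and Stab2 0.39, with array weights Cyp3a11 −0.64, Cd8a −0.60, Clec4f 0.14 and Stab2 0.0681. Further values were with the hepatocyte list as covariate Cyp3a11 −0.0572, with pre_Liver 4 and 5 left out Mki67 −0.0186, Cd8a −0.0988, Tubb5 −0.071 and Abcb1a 0.0082, with an Alb slope per group Mki67 −0.36, Cd8a −0.19, Tubb5 −0.39 and Abcb1a 0.045. Further values were with post_Liver 2 and 3 left out Mki67 −0.0846, Cd8a −0.0488 and Tubb5 −0.13, with a pseudocount of 0.1 Abcb1a 0.0488, with rescaling to TPM Abcb1a 0.0355. With 1 library left out, the adjusted ranges were −0.55 to 0.27 for Epcam, −0.34 to 0.41 for Cyp3a11, −0.22 to 0.84 for Mki67, −0.37 to 0.55 for Cd8a, −0.12 to 0.70 for Tubb5, −0.19 to 0.24 for Abcb1a, −0.89 to 0.0529 for Clec4f and −0.61 to 0.0898 for Stab2. With adjustment, the near-zero medians of the hepatocyte, Kupffer, sinusoidal, carcinoma, T and NK cell, mitosis and DNA replication lists changed sign with the scaling.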
